A study of Mus musculus with 145 samples.

Results

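Neural 2 is 1 of the clusters into which the deposited annotation divided single cells of mouse spermatogonial stem cells (SSCs) under reprogramming, and its members were the cells that carry this name in the annotation. It held 117 of 4464 annotated cells, of which 4339 came from the original condition, the culture without added chemicals. All 117 came from that condition, with 51 cells in day 27 replicate 1, 65 in day 27 replicate 2 and 1 in day 14 replicate 2. The cells derived from a C57BL/6 female by DBA male cross (DBA/2 in the study's methods), carried an *Oct4*-EGFP reporter and grew on inactivated mouse embryonic fibroblasts in a serum-free medium with EGF, bFGF, GDNF and LIF. Colonies were chosen by hand and single cells were taken by mouth pipette, so the share of a cluster also reflects which colonies were taken. In modified STRT-seq, cDNA carries a cell barcode together with a tag that marks single molecules, the unique molecular identifier (UMI). The groups compared here share genotype, medium and treatment, and differ in cluster, library and, for the SSC and Neural 1 cells, day and batch. The annotation divides the libraries into batches B1 and B2, and the Neural 2 and Neural 3 libraries lay in B1 alone, against 7 of 8 for Neural 1 and 29 of 36 for SSC1-4.

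SSCs keep the male germ line by dividing in response to GDNF, which the receptor pair Gfra1 and Ret transmits, and they carry the RNA-binding proteins Dazl and Ddx4 together with the transcription factors Zbtb16 and Dmrt1. In culture a few of them leave this state, and the study placed the neural clusters among the failed branches, the routes that did not reach pluripotency. Nr2f1 is an orphan nuclear receptor that patterns the developing forebrain, and Foxp2 is a forkhead factor of neurons. Their genes are the markers by which Neural 2 was set apart as neural.

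Neural 2 was a cluster of 2 libraries. It made up 54.8% (exact 95% interval 44.2 to 65.2) of the 93 cells of day 27 replicate 1 and 67.7% (57.4 to 76.9) of the 96 cells of replicate 2. Replicates 3, 4 and 5 of the same day held 0 of 96, 0 of 96 and 0 of 92 cells, which allows shares of up to 3.12, 3.12 and 3.26%. Over day 27 the share was 24.5%, 116 of 473 cells, and the mean of the 5 library shares was 24.5% ± 33.9 (SD, n = 5). On day 14 it was 1 of 566 cells (0.177%), and on the other 8 days it was 0, with limits between 0.355 and 3.45%. Intervals and limits cover counting error only.

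Replicates 1 and 2 of day 27 stood apart from the other 3. The annotation gave them 1 type code and 1 batch entry of their own within the day, and replicates 3 to 5 another entry, so the cluster, the library pair and that entry cannot be told apart on day 27. The remaining cells of the pair were Neural 3 (36 and 25 cells), SSC1 (3 and 4) and RPG4 (3 and 2), where RPG denotes cells on the route to pluripotency. Replicates 3 to 5 held Neural 1 instead (74, 57 and 75 cells) with 20, 38 and 10 SSC1-4 cells, as the plot of cells by library shows. The same batch entry as the pair was carried by the 7 day 23 libraries, in which 488 cells were SSC1-4 and 0 were Neural 2. The labels do not say whether the pair came from 1 culture or 2, so p-values below measure the spread between libraries, which may be technical.

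**Figure D1:**
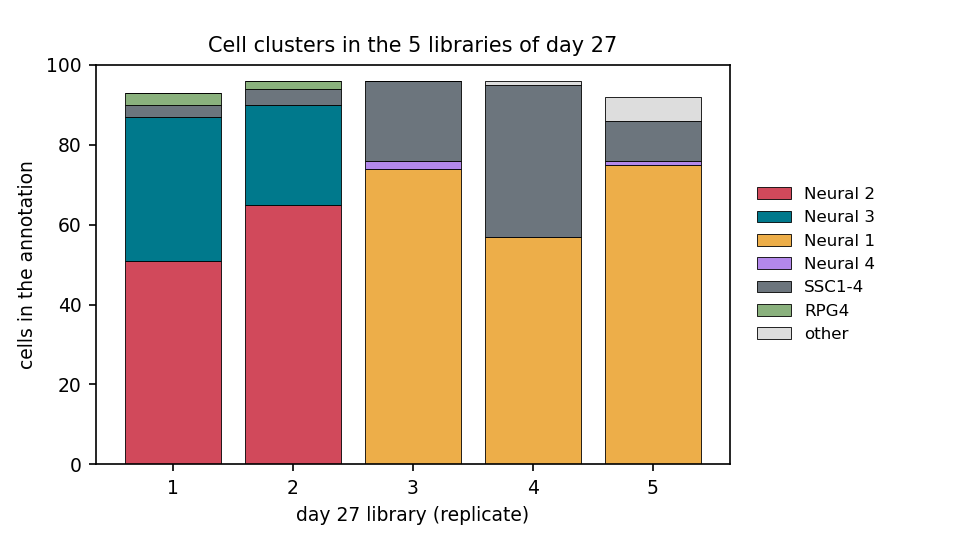
Number of annotated cells per cluster (y axis) in each of the 5 day 27 libraries (x axis, replicate), with bars stacked from 0. Neural 2 fills 51 and 65 cells of replicates 1 and 2, which hold all Neural 3 cells, and is missing from replicates 3 to 5, which hold Neural 1.

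Neural 2 cells were close in depth to the SSC1-4 cells and shallower than Neural 1. Their median was 278631 UMIs and 8808 genes in replicate 1 and 212539 UMIs and 8428 genes in replicate 2, with 11846 to 980795 UMIs per cell and 4 cells under 50000. The median was 248474 UMIs over the 2265 SSC1-4 cells and 318512 over the 271 Neural 1 cells, and Neural 3 stood at 305225 and 167493 in the same 2 libraries. Mitochondrial genes took a median of 0.898% of UMIs in Neural 2 and 0.925% in SSC1-4. Summed over cells, the 2 Neural 2 libraries held 16475080 and 13082130 UMIs. Values below are such sums per library and cluster in counts scaled to library size by TMM (CPM), with 2 libraries for Neural 2, 2 for Neural 3, 8 for Neural 1 and 36 for SSC1-4. The day 14 cell did not enter the sums. Neural 4, with 29 cells and too few in any 1 library, is given as a pooled level with no test.

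The marker genes of the label were low in Neural 2. *Nr2f1* (chr13:78188973-78199757, GRCm38) stood at 9.12 and 9.28 CPM in the Neural 2 libraries and at 180 and 180 CPM in Neural 3 of the same libraries. It was 2.07 ± 3.90 CPM in Neural 1 (SD, n = 8, highest 11.3) and 1.09 ± 2.04 CPM in SSC1-4 (n = 36, highest 11.2). The upper end of each range was 1 library, since the next highest stood at 2.77 CPM in Neural 1 and 4.33 CPM in SSC1-4, so both Neural 2 libraries lay above 7 of 8 and 35 of 36 libraries and far under Neural 3. *Foxp2* (chr6:14901349-15441977) was at 2.11 and 2.34 CPM in Neural 2 and at 68.2 and 96.5 CPM in Neural 3. In Neural 1 it was 2.36 ± 3.22 CPM and in SSC1-4 1.03 ± 1.64 CPM, so Neural 2 stood no higher than some libraries of either. *Msx1*, the homeobox gene that marks Neural 4 (153 CPM over its pooled cells), was at 4.96 and 6.47 CPM in Neural 2 and 6.25 ± 5.74 CPM in SSC1-4.

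None of these 3 genes passed the test in any of the 3 comparisons (edgeR, adjusted p below 0.05 and a fold change of at least 0.72 on the log2 scale). *Nr2f1* had a log2 fold change of 3.06 ± 0.92 (SE) against SSC1-4 (edgeR adjusted p = 0.19) and of -4.29 ± 1.92 against Neural 3 (adjusted p = 0.132). Against SSC1-4 of the same day alone, where replicate 5 held the 11.2 CPM, it was 1.49 (edgeR adjusted p = 1, over all alternatives 0.075 to 1). *Foxp2* had 1.03 ± 1.13 against SSC1-4 (edgeR adjusted p = 0.932) and -5.20 ± 2.01 against Neural 3 (adjusted p = 0.0735). The fit over all classes takes its spread from all of them, and within the 2 libraries alone, with the library as a block, the same differences from Neural 3 were called, at -4.18 for *Nr2f1* (edgeR adjusted p = 7.13e-18) and -5.07 for *Foxp2* (2.38e-13). That block fit holds 2 sums per cluster and leaves almost no degrees of freedom. Its p-values therefore rest mostly on a spread shared across genes and measure little of the spread between libraries. Over all alternatives the adjusted p against Neural 3 ranged from 7.13e-18 to 0.582 for *Nr2f1* and from 2.38e-13 to 0.473 for *Foxp2*. By its own marker genes and by the germ cell genes below, the cluster was thus not set apart as neural in these data, and it is called Neural 2 here only as the name in the annotation.

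At the level of cells the markers were present in many Neural 2 cells at a few UMIs each. *Nr2f1* had a UMI in 34 of 51 and 35 of 65 cells, and in 10 of these 69 cells more than 3 UMIs. With each cell thinned to 50000 UMIs, the shares went from 66.7 to 24.0% and from 53.8 to 16.1%. At that depth they were 79.4 and 70.8% in Neural 3, 3.33% in the day 27 SSC1-4 cells and 3.32% in Neural 1. The thinned share of Neural 2 thus lay between those of SSC1-4 and Neural 1 and that of Neural 3 in both libraries, a difference that was not tested over cells. In total 32 of 116 cells held UMIs of both *Nr2f1* and *Foxp2*, 34 held neither, and 6 reached the lower quartile of Neural 3 (21.3 CPM of *Nr2f1*). All 69 cells with an *Nr2f1* UMI also held more than 10 UMIs of *Dazl*, as did 49 of 51 and 64 of 65 of all Neural 2 cells in the 2 libraries.

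The germ cell genes were at the level of SSCs. *Dazl* (chr17:50279395-50293636), which binds germ cell mRNAs, was at 592 and 928 CPM in Neural 2, 813 ± 175 CPM in SSC1-4 and 704 ± 80.1 CPM in Neural 1. *Ddx4*, the germ cell RNA helicase, was at 391 and 518 CPM against 436 ± 73.5 CPM in SSC1-4. *Dmrt1*, which holds male germ cells in the spermatogonial programme, was at 239 and 372 CPM against 271 ± 78.6 CPM. Neural 2 lay within the SSC1-4 range for all 3 genes, and the plot of marker levels shows Neural 3 of the same libraries under every library of the other classes, at 75.7 and 194 CPM for *Dazl*. *Dazl*, *Ddx4* and *Dmrt1* each had a UMI in all 116 day 27 cells, and *Dazl* ranged from 44.4 to 2183 CPM per cell with a median of 817. The day 14 cell had 199 UMIs of *Dazl* (681 CPM), 160 of *Ddx4*, 1 of *Foxp2* and 0 of *Nr2f1*.

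**Figure D2:**
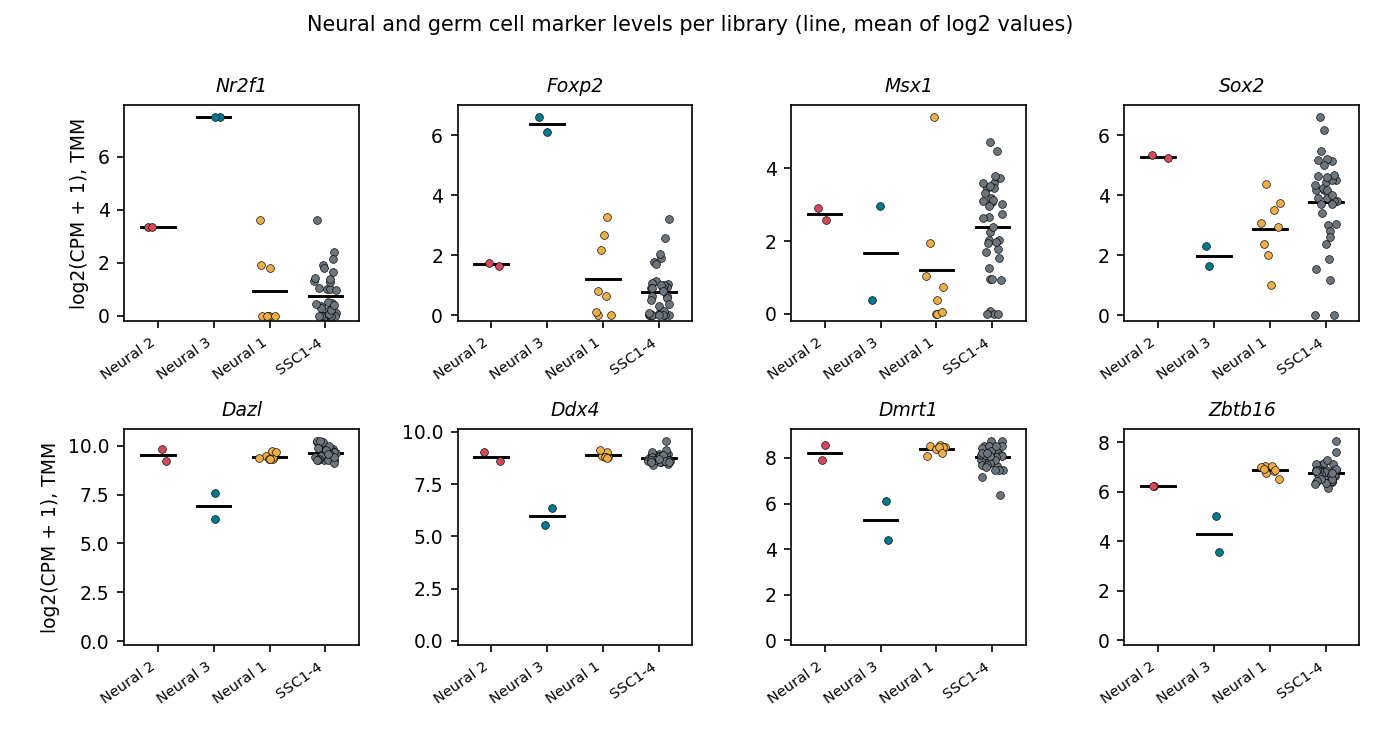
Level of 8 genes per library as log2(CPM + 1) on the y axis, by cluster on the x axis (Neural 2 and Neural 3, 2 libraries each, Neural 1, 8, SSC1-4, 36), with points for libraries and lines for their mean. *Nr2f1* and *Foxp2* are high in Neural 3 and low in Neural 2, where *Dazl*, *Ddx4* and *Dmrt1* stand among the SSC1-4 libraries.

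Of the stem cell genes *Zbtb16*, *Gfra1* and *Ret*, none was called against SSC1-4. *Zbtb16*, a repressor needed for SSC maintenance, was at 74.1 and 73.9 CPM in Neural 2, 117 ± 13.9 CPM in Neural 1 (lowest library 89.7) and 112 ± 35.9 CPM in SSC1-4 (lowest library 70.4), with a log2 fold change of -0.60 ± 0.29 against SSC1-4 (edgeR adjusted p = 0.809). Both Neural 2 libraries were thus under every SSC1-4 library but the lowest, and under those of day 27, at 112, 121 and 107 CPM. *Gfra1* was at 36.2 and 24.6 CPM against 25.5 ± 13.7 CPM, and *Ret* at 200 and 181 CPM against 96.1 ± 40.5 CPM (0.97 ± 0.40, edgeR adjusted p = 0.706). Neural 2 was thus inside the SSC1-4 range for the first gene of the GDNF receptor and at its upper end for the second. *Sox2*, shared by pluripotent and neural progenitor cells, was at 36.6 and 39.2 CPM against 19.6 ± 19.3 CPM in SSC1-4 (highest 96.3). Both Neural 2 libraries were above the SSC1-4 libraries of day 27, at 5.03, 23.2 and 2.68 CPM, and above each Neural 1 library (highest 19.6). *Sox2* was not called against SSC1-4 or Neural 1. Against Neural 3 (3.9 and 2.07 CPM) it was called, at 3.62 (edgeR adjusted p = 0.0491), but not without the 2 cells described below (0.0514). The pluripotency factors were near the floor, with *Pou5f1* at 6.1 and 1.48 CPM and *Nanog* at 2.34 and 2.26 CPM, and neither passed the test in any comparison.

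Seen over whole transcriptomes, with the cells of each cluster pooled, Neural 2 was closest to SSC3. Of genes at 20 CPM or more in either pool, 2.86% differed at least 2-fold from SSC3, 3.16% from RPG1, 3.51% from SSC4, 3.62% from Neural 1, 3.72% from Fibroblast 1, 3.81% from SSC2 and 5.45% from SSC1. RPG1 and Fibroblast 1 are given by their annotated names, which were not checked. The share was 34.3% for Neural 4 and 36.7% for Neural 3. These shares are descriptions, since clusters were drawn from the same transcriptomes, and Neural 4 was a shallow pool (29 cells, median 65379 UMIs).

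Against SSC1-4, 102 genes were called higher in Neural 2 and 0 lower, of 19113 tested (0.534%). At an unadjusted p below 0.05 the counts were 699 higher and 416 lower, and DESeq2 called 5 higher and 9 lower. The median log2 fold change over all genes was -0.04. Clusters were defined on these cells, so every call here describes the cluster and is not an independent test.

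The 102 genes ranged from broadly expressed to sporadic ones. Of them, 17 had a UMI in at least 100 of the 116 cells, 40 had one in fewer than 10 cells, the rest lay between, and in 41 a single cell held over 50% of the Neural 2 UMIs. The mean was under 20 CPM for 84 genes. For 72 genes, among them 16 of the 17 broad ones, the mean was higher still in Neural 3, and 75 were higher in replicate 1 than in replicate 2. Without the 2 cells of replicate 1 described below, 80 genes were called, without all of replicate 1, 45, and without replicate 2, 96.

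**Figure D3:**
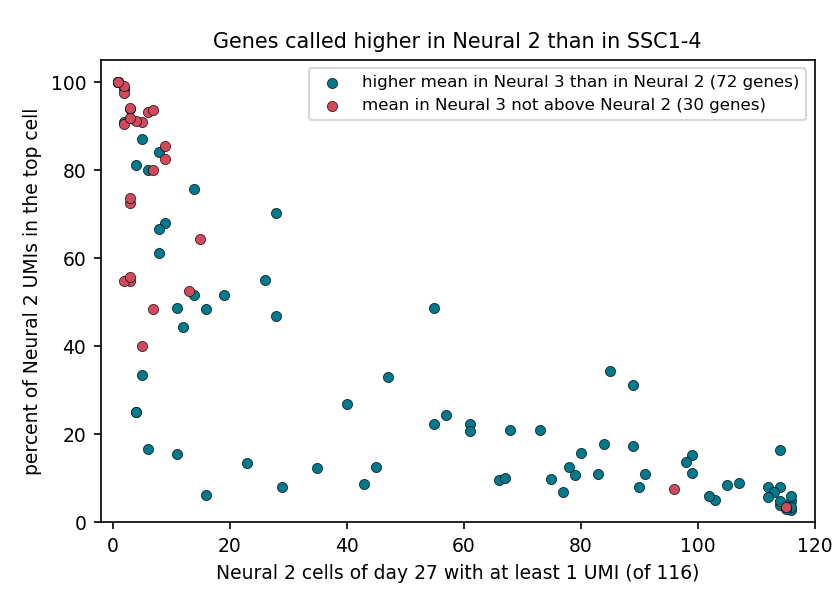
The 102 genes called higher in Neural 2 than in SSC1-4, by the number of Neural 2 cells with a UMI (x axis, of 116) and the percent of Neural 2 UMIs in the cell that holds most (y axis), coloured by whether the Neural 3 mean was higher (72 genes) or not (30). Genes in few cells sit at the upper left, where 1 cell supplies most UMIs, and the broad genes at the lower right are nearly all higher in Neural 3.

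The broad genes included a secreted growth factor, regulators of the cell surface and skeleton, and enzymes of glycolysis. *Mdk*, which encodes the heparin-binding growth factor midkine, was at 167 and 97.3 CPM in Neural 2, 19.4 ± 10.8 CPM in SSC1-4 and 925 and 1256 CPM in Neural 3 (2.71 ± 0.34 against SSC1-4, edgeR adjusted p = 1.8e-07). *Marcks*, a membrane protein that binds actin, was at 59.7 and 35.8 CPM against 4.76 ± 4.18 CPM (3.20 ± 0.50, edgeR adjusted p = 1.86e-05). Both Neural 2 libraries were above each of the 36 SSC1-4 libraries for these genes, whose highest were 46.4 and 16.5 CPM. *Peg3*, an imprinted zinc finger gene, was at 90.7 and 64.0 CPM against 15.8 ± 9.37 CPM (2.31 ± 0.35, edgeR adjusted p = 1.26e-05). *Gpc3*, a heparan sulfate proteoglycan of the cell surface, was at 64.7 and 31.3 CPM against 9.87 ± 4.07 CPM (2.25 ± 0.35, edgeR adjusted p = 1.86e-05). *Mdk* and *Peg3* had a UMI in all 116 cells, *Gpc3* in 113 and *Marcks* in 112.

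The other 8 of the 12 genes that the rule named had log2 fold changes between 1.93 and 2.92. *Sox11*, a transcription factor of neural progenitors, was at 47.2 and 34.7 CPM against 10.8 ± 12.7 CPM (highest 79.1). *Hmga2*, a chromatin protein of embryonic tissues, was at 33.6 and 15.7 CPM against 5.66 ± 3.74 CPM. *Tmsb4x*, the actin-binding thymosin beta 4, was at 178 and 90.6 CPM against 32.2 ± 19.9 CPM, and *Pcolce*, which aids collagen processing, at 39.9 and 23.5 CPM against 6.11 ± 4.16 CPM. *Sox11*, *Tmsb4x* and *Hmga2* were not called without the 2 cells described below (edgeR adjusted p = 0.401, 0.382 and 0.0511, over their alternatives 2.81e-04 to 1, 0.0178 to 1 and 0.013 to 1). *Trh*, the precursor of thyrotropin-releasing hormone, was uneven, at 124 CPM in replicate 1 and 22.8 CPM in replicate 2 against 9.26 ± 8.22 CPM. The lactate exporter *Slc16a3* was at 115 and 59.5 CPM against 17.8 ± 14.1 CPM.

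Of 18 glycolytic enzymes measured, 3 were called higher than in SSC1-4 and 0 lower, where 0.534% of all genes were called. In the list 16 had a positive fold change, and its median was 0.49, against -0.04 for all genes. *Pfkl* and *Pfkp*, the liver and platelet forms of phosphofructokinase, were at 139 and 129 CPM and at 183 and 210 CPM in Neural 2, against 30.7 ± 19.4 and 51.4 ± 33.5 CPM in SSC1-4. *Ldha*, the lactate dehydrogenase subunit that turns pyruvate into lactate, was at 593 and 675 CPM against 321 ± 84.8 CPM (0.98 ± 0.22, edgeR adjusted p = 0.0137). Both Neural 2 libraries lay above each SSC1-4 library for these 3 genes. None of the 3 was called against SSC1-4 of the same day, with *Pfkl* at 1.66 (edgeR adjusted p = 0.0926), *Pfkp* at 1.32 (0.765) and *Ldha* at 0.98 (0.185), nor against SSC1-4 of the same batch entry. Of 16 hypoxia response genes 1 was called, the glucose transporter gene *Slc2a3* (142 and 137 CPM against 53.6 ± 23.6 CPM), with a list median of 0.64. Of 22 cholesterol synthesis genes 1 was called, *Tm7sf2* (28.3 and 9.20 CPM against 2.21 ± 1.94 CPM), with a list median of 0.37. Against Neural 1 no gene of these 3 lists was called, with medians of 0.15, 0.27 and 0.47.

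Most calls among neural genes were of genes under 10 CPM. Of 34 neural progenitor regulators measured, 4 were called higher than in SSC1-4 and 0 lower, beside 0.534% of all genes, and of 33 neuronal genes 0 were called. The list medians were 0.37 and 0.69, against -0.04 for all genes, and 22 members of each list had a positive fold change. Over the alternatives the progenitor median ranged from -0.51 to 0.64, so its sign was not stable, and the neuronal median from 0.23 to 1.75. Besides *Sox11*, the called regulators were *Fabp7* (1.43 and 2.26 CPM), *Neurog2* (8.72 and 0 CPM) and *Insm1* (4.33 and 0 CPM), each near 0 in SSC1-4. *Neurog2* had a UMI in 9 cells and *Insm1* in 5, and 1 cell held 82.4 and 90.8% of them. *Fabp7* had UMIs in 12 cells, with 44.4% in 1 cell. Without the 2 cells described below, *Fabp7* alone of the 4 was still called (5.26, edgeR adjusted p = 0.00416), with *Neurog2* at 1.35 (0.952) and *Insm1* at 0.61 (0.986). The summed level of the neuronal list was 1237 and 1344 CPM in Neural 2 against 925 to 2051 CPM in SSC1-4, and that of the progenitor list 516 and 372 CPM against 245 to 539 CPM. Glial and neural crest genes had 0 of 16 called and a median of 0.00.

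The germ cell lists likewise had few calls. None of 23 germ cell identity genes, 25 meiotic genes, 15 spermatogonial differentiation genes and 20 pluripotency genes was called against SSC1-4, and their medians were -0.06, -0.08, 0.00 and -0.02. Of 30 SSC self-renewal genes 1 was called, the immediate early factor gene *Egr3*, and all of its 28 UMIs were in 1 cell of replicate 2. The summed germ cell identity genes reached 6420 and 8309 CPM in Neural 2 against 6336 to 9867 CPM in SSC1-4. Mitosis genes (0 of 24, median -0.10), S phase genes (0 of 25, -0.18), H1 linker histone genes (0 of 7, -0.05), integrated stress response genes (0 of 16, 0.08), p53 targets (0 of 18, -0.12), immediate early and heat shock genes (0 of 17, 0.05) and metallothionein and redox genes (0 of 16, -0.14) had no call.

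Markers of cells that could have been carried along were also listed. Fibroblast and feeder genes had 0 of 25 called against SSC1-4 and a median of 0.26, with a summed level of 869 and 1058 CPM in Neural 2 within the 578 to 1516 CPM of SSC1-4 and under the 3286 and 3683 CPM of Neural 3. Testis somatic genes summed to 54.9 and 49.7 CPM against 7.41 to 53.5 CPM in SSC1-4, so replicate 1 lay just above that range. Of these genes 0 of 9 were called, and 6 of the list, among them *Amh*, *Insl3* and *Nr5a1*, were at 0. Immune genes summed to 106 and 112 CPM against 13.4 to 112 CPM, with 0 of 9 called and the leukocyte genes *Ptprc*, *Tyrobp*, *C1qa*, *C1qb* and *Adgre1* at 0. Most of that sum was *Cd74*, the invariant chain of MHC class II, at 67.7 and 94.7 CPM against 19.5 ± 16.2 CPM in SSC1-4 (2.03 ± 0.61, edgeR adjusted p = 0.19) and 4.44 and 5.90 CPM in Neural 3.

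Against the SSC1-4 cells of the same day, which came only from replicates 3 to 5, *Mdk* was the 1 gene called (2.66 ± 0.39, edgeR adjusted p = 0.00741, range 1.53e-08 to 0.0215 over all alternatives), at 8.49 to 28.8 CPM in those SSC1-4 libraries. With SSC1-4 taken from the libraries of the same batch entry, all of day 23, 34 genes were called higher and 2 lower. There *Mdk*, *Marcks*, *Peg3* and *Gpc3* were called, at edgeR adjusted p = 6.3e-05, 0.019, 0.00396 and 0.0226, while *Pfkl* was at 1.6 (0.0501), *Ldha* at 0.73 (0.147) and *Pfkp* at 1.37 (0.233). The adjusted p ranged over all alternatives from 0.00426 to 0.489 for *Pfkl*, from 0.0145 to 0.898 for *Ldha* and from 0.0261 to 0.871 for *Pfkp*.

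Neural 1, the neural cluster of the other day 27 libraries, differed from Neural 2 in few genes, and genes of cell division were among them. Of 19113 genes, 49 were called higher in Neural 2 and 0 lower (0.256%), with 1185 higher and 569 lower at an unadjusted p below 0.05. DESeq2 called 28 higher and 19 lower. *Mki67* (chr7:135689784-135716361), which marks cycling cells, was at 89.3 and 75.2 CPM in Neural 2 and 11.6 ± 11.2 CPM in Neural 1 (highest 36), a log2 fold change of 2.69 ± 0.41 (edgeR adjusted p = 1.11e-04). SSC1-4 stood at 91.3 ± 30.7 CPM and Neural 3 at 310 and 332 CPM, so both Neural 2 libraries were near the mean over the SSC1-4 libraries of all days. They were under the SSC1-4 libraries of day 27, at 145, 142 and 122 CPM. Thinned to 50000 UMIs, 60.0 and 62.9% of Neural 2 cells held a *Mki67* UMI, 25.8% of Neural 1 and 62.6% of SSC1-4 cells. In the day 27 SSC1-4 cells the share was 76.7%. The SSC clusters differed among themselves, with 42.1% in SSC1, 92.1% in SSC2, 91.3% in SSC3 and 29% in SSC4, so there was no single SSC level and Neural 1 was close to SSC4.

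The mitosis list stood on the same side. All 24 members had a positive fold change against Neural 1, with a median of 0.81, and 5 were called, beside 0.256% of all genes. The kinase gene *Plk1* was at 126 and 139 CPM against 31 ± 12.2 CPM (2.07 ± 0.37, edgeR adjusted p = 0.00175). *Nusap1*, a spindle protein, was at 109 and 141 CPM against 28.4 ± 18.4 CPM, the cyclin degradation enzyme *Ube2c* at 237 and 336 CPM against 106 ± 25 CPM, and the kinase *Cdk1* at 175 and 238 CPM against 97.6 ± 30.6 CPM. Among 25 S phase genes 1 was called, *Rrm2*, which supplies deoxynucleotides, at 131 and 72.1 CPM against 30.1 ± 16.8 CPM, and the list's median was 0.20. The summed mitosis genes reached 3844 and 5170 CPM in Neural 2, 1985 to 2972 CPM in Neural 1 and 3125 to 6325 CPM in SSC1-4, so Neural 2 and Neural 1 did not overlap. The calls depended on the samples in the fit. With these 2 classes alone, *Mki67*, *Plk1*, *Nusap1* and *Rrm2* kept log2 fold changes of 2.77, 2.09, 2.13 and 1.75 and were not called (edgeR adjusted p = 0.226, 0.0517, 0.369 and 0.369, over all alternatives 6.35e-05 to 0.226, 0.00178 to 0.0658, 0.0134 to 0.369 and 9.34e-04 to 0.569). *Plk1* and *Nusap1* also lost the call without either day 27 library, and *Rrm2* without replicate 1.

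**Figure D4:**
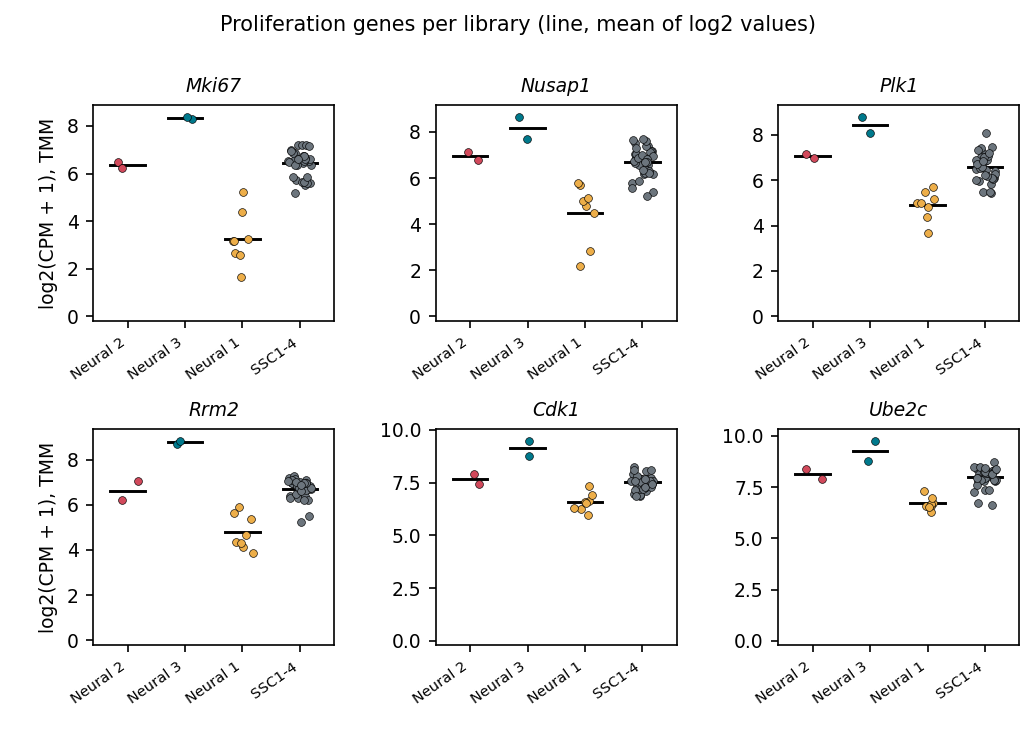
Level of 6 proliferation genes per library as log2(CPM + 1) on the y axis, by cluster on the x axis, with points for libraries and lines for their mean. Neural 2 lies within the range of SSC1-4 for all 6 genes, above every Neural 1 library, and under Neural 3.

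The 6 genes named for their fold over Neural 1, among those at 20 CPM or more in Neural 2, had different known roles. *Marcks* (2.77 ± 2.72 CPM in Neural 1) and *Gpc3* (6.54 ± 4.28 CPM) were higher in Neural 2 by 3.95 ± 0.68 and 2.76 ± 0.43 on the log2 scale (edgeR adjusted p = 9.17e-04 and 1.93e-04). *Spon1*, which encodes the matrix protein F-spondin, was at 20.9 and 20.8 CPM against 1.69 ± 2.44 CPM (3.39 ± 0.74, edgeR adjusted p = 0.0211). *Igfbp5*, an insulin-like growth factor binding protein, was at 44.1 and 20.3 CPM against 3.67 ± 2.71 CPM, *Anxa5*, a phospholipid-binding annexin, at 31.9 and 13.7 CPM against 1.93 ± 1.79 CPM, and *Lbh*, a transcription cofactor, at 36.2 and 31.3 CPM against 4.55 ± 3.64 CPM. In all 6 genes each Neural 2 library was above the highest Neural 1 library. Of the 49 genes, 21 had a UMI in at least 100 cells and 6 had over 50% of UMIs in 1 cell. With only these 2 classes in the fit, 3 genes were called, and with at least 10 cells per sum, 19. Without replicate 1 of day 27, 5 genes were called, without replicate 2, 25, and without the 2 cells described below, 27.

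Neural 3 shared both libraries with Neural 2, and of the 3 classes tested it had the most calls. There 1583 genes were called higher in Neural 2 and 906 lower, 13% of 19113 tested (8.28% and 4.74%). With the library as a block, over 14401 genes in these 2 libraries, 2465 were called higher and 2473 lower, and leaving out the block in these libraries gave 2241 and 2142. Both of these fits hold 2 sums per cluster, so their calls rest mostly on a spread shared across genes. Leaving out either library left 534 to 765 calls.

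Germ cell genes were the clearest group among those higher in Neural 2. Of 23 germ cell identity genes 22 were called higher, with a list median of 3.09 against 0.00 for all genes. *Dazl* differed by 2.51 ± 0.31 on the log2 scale (edgeR adjusted p = 9.8e-09), *Ddx4* by 2.85 ± 0.25 (1.26e-13) and *Dmrt1* by 2.81 ± 0.44 (3.44e-06). *Rnf17*, a tudor-domain protein of germ cell granules, was at 196 and 236 CPM against 7.04 and 18.3 CPM in Neural 3. Meiotic genes had 20 of 25 called and a median of 3.01, for instance the synaptonemal complex gene *Sycp3* at 45.0 and 64.4 CPM against 1.63 and 2.66 CPM. Spermatogonial differentiation genes had 7 of 15 called (median 2.38), with the retinoic acid target *Stra8* at 115 and 180 CPM against 6.18 and 22.1 CPM. SSC self-renewal genes had 9 of 30 (1.97), led by *Gfra1* at 1.19 and 1.18 CPM in Neural 3 (4.67 ± 1.01, edgeR adjusted p = 6.95e-04), and *Ret* differed by 3.45 ± 0.69. Pluripotency-associated genes had 7 of 20 called (2.55), among them *Zfp42* and *Dppa5a*, at 47.6 and 69.8 CPM and at 58.3 and 52.5 CPM in Neural 2, against at most 3.54 and 5.31 CPM. None of these 5 lists had a member called lower.

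Among called genes at 20 CPM or more in Neural 2, with both libraries on the same side of the Neural 3 median, the largest folds over Neural 3 were those of *Rhox7b*, an X-linked homeobox gene (33.9 and 27.2 CPM against 0.867 and 0.885 CPM, 5.12 ± 0.61), *Topaz1*, needed for male meiosis (27.1 and 46.1 CPM against 0.650 and 2.07 CPM), and *Npffr1*, *Ppm1j*, *Lmo2* and *Cfap53*, with log2 fold changes between 4.93 and 5.05. Some genes of the neural and neuronal lists stood on the same side. *Zic1* (35.1 and 35.1 CPM against 3.03 and 8.56 CPM), *Hes5*, the neurofilament-related *Ina* (30.6 and 27.1 CPM against 1.95 and 2.66 CPM), *Chga* and *Uchl1* were higher in Neural 2, and SSC1-4 stood at 33.8 ± 15.6 CPM for *Zic1* and 43.9 ± 15.7 CPM for *Ina*. In all, 3 of 34 progenitor regulators were higher, *Sox2*, *Zic1* and *Hes5*, and 1, *Sox11*, was lower. Of 33 neuronal genes 3 were higher, and both shares were near the 8.28% of all genes called higher.

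Genes lower in Neural 2 than in Neural 3 included regulators of mesenchyme and the metabolic and stress lists. Among called genes at 20 CPM or more in Neural 3, under the same limits, the largest folds were those of *Mecom* (1.48 and 0.468 CPM against 96.1 and 95.3 CPM, -6.59 ± 1.79, edgeR adjusted p = 0.00774), *Etv1*, *Airn*, *Prrx1*, *Sema6a* and *Parm1*. *Prrx1*, a homeobox gene of mesenchyme, was at 1.37 and 1.17 CPM against 77.6 and 53.4 CPM, and the neural crest and chondrocyte regulator *Sox9* at 18.9 and 29.9 CPM against 267 and 400 CPM. Fibroblast and feeder genes had 5 of 25 called lower (median -2.68), for example *Col1a1* at 62.2 and 44.0 CPM against 360 and 362 CPM. Glycolytic enzymes had 8 of 18 called lower (-1.07), with *Ldha* at 1638 and 1962 CPM in Neural 3. Cholesterol synthesis genes had 10 of 22 lower and 1 higher (-1.20), integrated stress response genes 7 of 16 (-1.89) with *Asns* at 106 and 69.3 CPM against 458 and 548 CPM, and mitosis genes 10 of 24 (-0.89). Over all genes 4.74% were called lower and 8.28% higher, and nothing is read from the lists with 1 or 2 calls. H1 linker histone genes had 2 of 7 lower (-2.39), S phase genes 4 of 25 lower and 1 higher (-0.18), hypoxia genes 3 of 16 lower (-0.43) and p53 targets 4 of 18 higher and 1 lower (-0.29). Glial and neural crest genes had 1 of 16 higher and 2 lower (1.30), immediate early and heat shock genes and redox genes 2 higher and 2 lower each (-0.13 and 0.66), immune genes 2 of 9 higher (0.00) and testis somatic genes 0 of 9 (0.07).

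Transcripts typical of Neural 3 were present at a low level in all Neural 2 cells. A set of 58 genes was taken at 100 CPM or more in Neural 3 and under 5 CPM in SSC1-4, without use of Neural 2 values. Their sum had a median of 655 CPM per Neural 2 cell in replicate 1 (205 to 4295) and 372 CPM in replicate 2 (122 to 961), against 10811 and 10311 CPM in Neural 3. The median was 82.6 CPM over SSC1-4 cells (95th percentile 287) and 123 CPM over Neural 1 cells. Neural 4, with 0 cells in these 2 libraries, had a median of 377 CPM (upper quartile 634), as high as Neural 2 of replicate 2. All 117 Neural 2 cells lay above the SSC1-4 median, 96 lay above the 95th percentile, and 0 reached the lowest Neural 3 cell (5885 CPM). Gene by gene, the Neural 2 level was a median of 5.09% of the Neural 3 level in replicate 1 (quartiles 3.89 to 8.14) and 2.88% in replicate 2 (2.16 to 4.15). The genes were taken as low in SSC1-4, which favours any other cluster over SSC1-4, so nothing is read from that difference.

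The 7 SSC1 cells of the same 2 libraries had similar values. Their medians were 386 CPM (n = 3) and 349 CPM (n = 4), at median depths of 7443 and 20999 UMIs, and the Neural 2 cell of day 14 had 274 CPM. Summed SSC1 cells held *Mdk* at 98.2 and 176 CPM and *Peg3* at 98.2 and 205 CPM, from 2 and 18 UMIs and 2 and 21 UMIs. The part of the library in these levels, and of Neural 3 transcripts in the genes called against SSC1-4, was not tested. In the opposite direction, *Dazl* had a UMI in 60 of 61 Neural 3 cells.

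**Figure D5:**
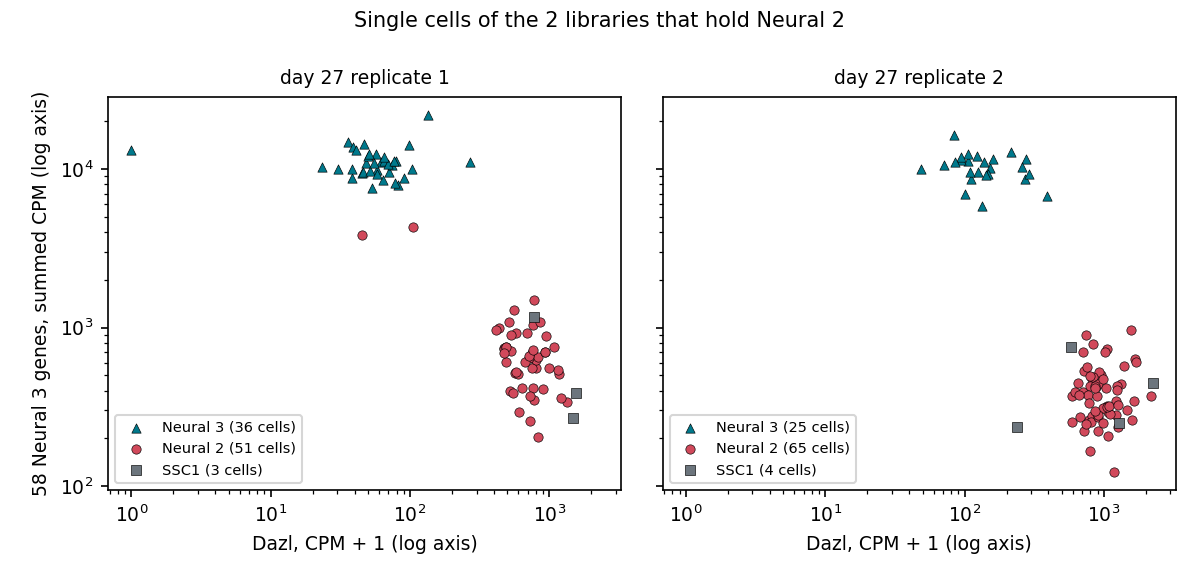
Each point is 1 cell of day 27 replicate 1 (left) or 2 (right), by its level of *Dazl* (x axis, CPM + 1, log axis) and the summed CPM of 58 Neural 3 genes (y axis, log axis). Neural 2 cells form a group at high *Dazl* and low Neural 3 genes together with the SSC1 cells, Neural 3 cells the opposite group, and 2 Neural 2 cells of replicate 1 (4295 and 3817 CPM) lie between at low *Dazl*.

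Within the cluster, 2 cells of replicate 1 differed from the other 115 and were singled out after their values were seen. They were the ones above 2000 CPM in the Neural 3 genes, with 4295 and 3817 CPM at 287563 and 202800 UMIs. They held 30 and 9 UMIs of *Dazl* (104 and 44.4 CPM), 17 and 2 of *Ddx4* and 3 and 0 of *Zbtb16*, the low end of the cluster for *Dazl*. Both held proneural and neuronal transcripts in number. *Neurod4*, a basic helix-loop-helix factor of early neurons, had 177 and 84 UMIs, *Nhlh1* 132 and 88, *Neurog2* 126 and 18, the neuronal tubulin gene *Tubb3* 177 and 223, and *Sox11* 180 and 193. The 2 cells differed in patterning genes, with *Nkx6.1* at 213 and 0 UMIs, *Foxd1* at 134 and 1, *Meis1* at 1 and 66, *Hoxc5* at 0 and 31 and the growth-associated *Stmn2* at 1 and 184. *Nr2f1* was at 1 and 0 UMIs in them, so the label's marker did not pick them out. Each of the 2 cells supplied over 50% of the UMIs of 8 of the 102 genes called against SSC1-4.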

How the data were processed

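Single cells were profiled by modified STRT-seq in 96-well libraries. The deposited values are UMI counts of genes in single cells, not normalized, and a cell annotation with the cluster, library, type and batch entry, in which a percent of mitochondrial UMIs is given per cell. Per the labels, reads were aligned to mm10 with STAR 2.7.2b and assigned to genes with featureCounts 2.0.0, and per the paper's methods UMI-tools counted molecules and Seurat clustered cells. Clusters were used as deposited and no cell was removed, and a sample listed under more than 1 library name was 1 library. No doublet caller was run, since single cells were picked by hand, and 34 of the 96 well barcodes were shared by Neural 2 cells of both libraries.

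Counts were summed per library and cluster with at least 5 cells, SSC1, SSC2, SSC3 and SSC4 together. Neural 2, Neural 3, Neural 1 and SSC1-4 entered 1 fit in edgeR 4.0.16 (TMM, filterByExpr, glmQLFit and glmQLFTest, R 4.3.3) with no block. A call needed an adjusted p (Benjamini-Hochberg, all genes tested) under 0.05 together with a fold change of 0.5 or more on the natural-log scale in either direction, which is the study's bound. Libraries, not cells, were replicates, and sums held 433094 to 34168335 UMIs in SSC1-4 and 975738 to 26473685 in Neural 1. Neural 2 and Neural 3 were paired by library, and their library deviations correlated at r = 0.172 across 19113 genes, which are not independent replicates. Shares have exact (Clopper-Pearson) 95% intervals, and where nothing was counted, 3 counts set the upper limit. Coordinates are from GENCODE vM21 on GRCm38.

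Named genes were the 12 called genes of largest fold in each direction against SSC1-4 and the 6 against each neural cluster, at 20 CPM or more in the higher class and on the same side of the other class's median in each Neural 2 library, without predicted or mitochondrial genes, together with the neural, germ and pluripotency markers, 1 of which is not reported here, and up to 3 called genes per list and direction. Genes given outside this rule, *Ret*, *Cdk1*, *Ube2c* and those of the 2 single cells among them, were chosen after their values were seen. The members and lists were chosen with earlier results of these data known. The tests were tried on simulated data. Alternatives changed scaling, filter, test (DESeq2 1.42.0), thresholds, cell minimum, covariate, block, samples and depth. Methylation and chemically treated samples were not used here.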

Additional observations from a re-analysis of the deposited data

Results flagged for a closer look

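Of 18 genes checked over the 8 Neural 1 libraries, 5 had 1 library far above the others, where chance flags about 1 in 20 groups. That rate need not hold for genes near 0 CPM, as the 5 were by their medians, so nothing is read from the count. The highest Neural 1 library stood at 11.3 CPM for *Nr2f1*, 41.8 CPM for *Msx1*, 16.8 CPM for *Pou5f1*, 7.63 CPM for *Nanog* and 7.04 CPM for *Spon1*, against Neural 1 medians of 0, 0.486, 2.47, 0.57 and 0.816 CPM. With these libraries included, the *Nr2f1* level of Neural 2 (9.12 and 9.28 CPM) lay within the Neural 1 range, while *Spon1* in Neural 2 (20.9 and 20.8 CPM) lay above it. Neural 2 and Neural 3, with 2 libraries each, and SSC1-4, with 36, were not checked in this way.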

How the results depend on the processing

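The counts of calls depended on the setting, and those not named here stayed within 1.5 times. Against SSC1-4, 102 calls became 221 with no filter on low counts, 14 with DESeq2 (5 higher, 9 lower), 38 with only the 2 classes in the fit, 1 with SSC1-4 of day 27, 36 with SSC1-4 of the same batch entry, and 45 to 96 without 1 library of day 27. Against Neural 1, 49 calls became 11 with the stricter thresholds (adjusted p under 0.01, natural-log fold change 1 or more), 75 with no filter, 19 with at least 10 cells per sum, 3 with only the 2 classes in the fit, 27 without the 2 cells highest in Neural 3 genes and 5 to 25 without 1 library, and DESeq2 gave 47 (28 higher, 19 lower). Against Neural 3, 2489 calls became 1078 with the stricter thresholds, 3918 with DESeq2, 4094 with at least 10 cells per sum, 4383 with only the 2 classes in the fit, and 534 to 765 without 1 library. The causes were not tested, and the reduced fits also held fewer samples. Without 1 library, the lone Neural 2 and Neural 3 sums are assumed to vary like the other groups.

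With the library as a replicate block, 4938 genes differed between Neural 2 and Neural 3 (2465 higher, 2473 lower), and 4383 with those 2 libraries and no block (2241 higher, 2142 lower). The share of calls that were higher was thus lower than in the fit of all classes. No paired analysis was possible against SSC1-4 and Neural 1 because 0 libraries held sums of both. The comparison with Neural 4 and its alternatives were not run, since no library held 5 of its cells. The same batch entry, the same libraries without block and the removal of the 2 cells were chosen after seeing the data.

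Of the named genes' values under alternatives, 1213 kept their direction and side of the threshold, 252 were no longer called, 13 became called and 32 changed sign, 29 of them in genes not called under either setting. With 1 library of day 27 left out, *Neurog2* ranged from -3.65 to 6.34, *Insm1* from -2.97 to 6.06 and *Egr3* from -1.37 to 6.71, lowest without replicate 1 for *Neurog2* and *Insm1* and without replicate 2 for *Egr3*, as their UMIs sat in single cells. In the same way, against SSC1-4, *Msx1* ranged from -0.42 to 0.01, *Dazl* from -0.51 to 0.20, *Dmrt1* from -0.23 to 0.47, *Ddx4* from -0.21 to 0.25, *Gfra1* from -0.07 to 0.44 and *Pou5f1* from -1.42 to 0.56. Against Neural 1, *Foxp2* ranged from -0.13 to 0.08, *Msx1* from -0.13 to 0.32, *Dazl* from -0.27 to 0.44, *Dmrt1* from -0.52 to 0.18, *Ddx4* from -0.28 to 0.18 and *Pou5f1* from -1.48 to 0.51, and against Neural 3 *Msx1* from -0.40 to 4.51. With SSC1-4 of the same day, *Msx1* went to 0.50, *Dazl* to 0.13, *Dmrt1* to -0.07 and *Pou5f1* to 0.20. With the same batch entry, *Dazl* went to 0.20, *Gfra1* to -0.34 and *Pou5f1* to 0.91. With SSC clusters summed apart, *Msx1* went to 0.20, *Pou5f1* to 0.22 and *Nanog* to -0.06, and without the 2 cells *Nanog* to -0.01. With at least 10 cells per sum, *Pou5f1* went to 0.07 against SSC1-4 and 0.06 against Neural 1, *Ddx4* to 0.04 and *Foxp2* to 0.99 against Neural 1, and with batch as covariate *Foxp2* went to 0.55 there. The day 27 share of 24.5% was the same as a mean of libraries and over cells with at least 100000 UMIs. Of the list medians against SSC1-4 under alternatives, 44 changed sign and 220 did not.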
